A study of Mus musculus with 9 samples.

Results

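The genes described here are 8 genes of cytotoxic lymphocytes, read on arrays of 3 kinds of mouse cell: very small embryonic-like stem cells (VSEL), cells sorted as haematopoietic stem cells (HSC), and embryonic stem cells of the line ESC-D3 (ESC). They were chosen by symbol: every probe set that the platform annotation gives to Klrd1, Klrk1, Ncr1, Nkg7, Gzma, Gzmb, Prf1 or Tbx21 was taken, which made 9 probe sets of 45037 on the array, for 8 of 18193 named genes. Prf1 has 2 probe sets, the other genes have 1 each, and no probe set is shared with another gene. VSEL and HSC were sorted from marrow mononuclear cells of C57BL/6 mice aged 4 weeks as Sca-1+ cells without lineage markers, CD45- for VSEL and CD45+ for HSC. ESC-D3, a single line of strain 129S2/SvPas from a preimplantation embryo, was kept with 10 ng/ml of leukaemia inhibitory factor on a coat of 0.1% gelatin, so strain, culture and cell type cannot be told apart in comparisons with it. Each of the 9 arrays, 3 for each cell type, carried amplified cDNA from 20 cells.

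Natural killer (NK) cells and cytotoxic T cells kill target cells by releasing granules. Perforin opens the way into the target and granzymes, which are serine proteases, start its death from inside. Surface receptors decide whether the granules are released, and T-box transcription factors set up the programme during development of these cells.

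Values are log2 RMA values of the deposited table. Between VSEL arrays 2 and 3 only 1 probe set differed over 4-fold and r over probe sets was 0.989, whereas other replicate pairs had 1565 to 4232 such probe sets and r of 0.831 to 0.957. They were therefore averaged and counted as 1 library (VSEL 2+3), which leaves n = 2 for VSEL, 3 for HSC and 3 for ESC. An SD given for VSEL is thus taken over 2 values and can be smaller than the spread of its 3 arrays. The labels do not tell whether replicate libraries stem from different animals or cultures, and p-values therefore reflect the spread of these libraries alone, which may be technical. As a mark of background, the 95th percentile of 44 olfactory receptor probe sets was 6.16 to 6.37 on VSEL arrays, 5.54 to 5.82 on HSC arrays and 5.59 to 5.65 on ESC arrays. In the text, background means values at or below this level on the same array, and a difference against such a value can understate the true ratio. Ptprc, the gene of CD45, was at background on every VSEL and ESC array and at 13.40 to 13.68 on HSC arrays. Of 9 measured stem cell markers of blood, 2 or 3 were above background on each VSEL array, 4 to 6 on each HSC array and 3 or 4 on each ESC array, while 8 of 8 embryonic stem cell markers were above it on the VSEL and ESC arrays and 1 of 8 on each HSC array.

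The cytotoxic genes were high on HSC arrays and at background on ESC arrays, apart from Prf1 on ESC array 2, and all of them except Ncr1 and Nkg7 were at background on the VSEL arrays too. Of the 9 probe sets, 8 were higher in HSC than in ESC (limma with Benjamini-Hochberg adjustment over all probe sets, called at an adjusted p of 0.05), where 4.42% of all probe sets were called higher and 6.21% lower. In VSEL against HSC 6 of 9 were lower and none was higher, where 6.19% of all probe sets were called lower and 8% higher. The median difference of the 9 was 4.30 in HSC minus ESC and -3.43 in VSEL minus HSC, against -0.018 and 0.21 over all probe sets. In VSEL minus ESC 1 of 9 was called, higher, where 7.13% of all were called higher and 6.93% lower, and the median difference was 0.23 against 0.17 over all probe sets. The array controls differed between the groups as well. Hybridisation controls averaged 10.96 to 11.53 on VSEL arrays, 9.91 to 10.35 on HSC arrays and 10.06 to 10.23 on ESC arrays, and the 3′ minus 5′ difference of control transcripts was 0.709 to 1.07 on VSEL arrays, 0.734 to 0.962 on HSC arrays and 0.340 to 0.446 on ESC arrays, highest on VSEL array 1. Their part in the differences was not tested. Because the arrays hold RNA of several cells each, fewer cells with a transcript and less of it per cell cannot be told apart.

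**Figure D1:**
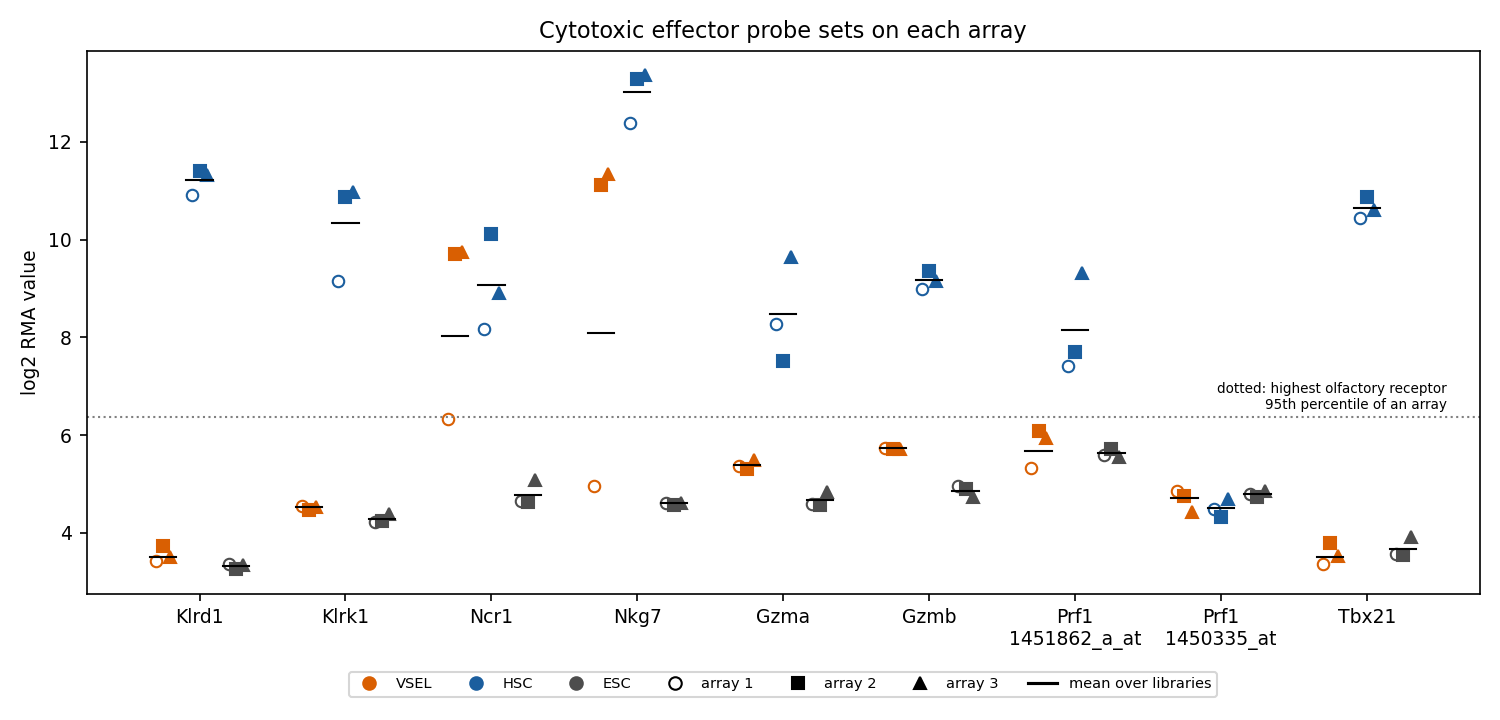
Log2 RMA value of each of the 9 probe sets (x axis) on each of the 9 arrays, with VSEL, HSC and ESC from left to right, symbols for arrays 1 to 3 and a bar for the mean over libraries. Every HSC value lies above 7.4 except for the Prf1 probe set 1450335_at, and VSEL arrays 2 and 3 stand apart from VSEL array 1 for Ncr1 and Nkg7.

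Klrd1 encodes CD94, which pairs with NKG2 proteins to form receptors for MHC class I molecules on NK cells and on some T cells. Its log2 value was 3.41, 3.73 and 3.50 on VSEL arrays 1 to 3, 10.92, 11.40 and 11.32 on HSC arrays and 3.35, 3.26 and 3.35 on ESC arrays. The HSC arrays were all high and the others all at background, with no overlap between HSC and either other group. Klrd1 fell by 7.70 in VSEL against HSC (SE 0.17, adjusted p = 8.33e-06) and was 7.90 higher in HSC than in ESC (SE 0.15, adjusted p = 1.92e-06).

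Klrk1 encodes NKG2D, an activating receptor for stress-induced ligands. Its log2 value was 4.54, 4.46 and 4.53 in VSEL, 9.16, 10.87 and 10.98 in HSC and 4.22, 4.25 and 4.38 in ESC. HSC array 1 was the lowest of its group and still far above every VSEL and ESC array. Klrk1 fell by 5.82 in VSEL against HSC (SE 0.53, adjusted p = 0.00178) and was 6.05 higher in HSC than in ESC (SE 0.48, adjusted p = 0.000517).

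Ncr1 encodes NKp46, an activating receptor used to mark NK cells in mice. Its log2 value was 6.32, 9.70 and 9.75 on VSEL arrays 1 to 3, 8.16, 10.11 and 8.91 on HSC arrays and 4.64, 4.62 and 5.08 on ESC arrays. VSEL array 1 was at background, though just below the level of 6.37 on that array and above every ESC array. VSEL arrays 2 and 3 lay within the range of HSC. Ncr1 was 4.28 higher in HSC than in ESC (SE 0.91, adjusted p = 0.0327), a call that ended without HSC array 1, 2 or 3 (adjusted p of 0.0570, 0.0952 and 0.0874) and without any ESC array (0.0856 to 0.106). The spread used there includes the distance between the VSEL libraries. In a fit of HSC and ESC alone the adjusted p was 0.00562. The VSEL minus HSC difference was -1.04 (95% interval -3.51 to 1.43, adjusted p = 0.507) and turned to 0.66 without VSEL array 1 (adjusted p = 0.589). The VSEL minus ESC difference was 3.24 (95% interval 0.77 to 5.71, adjusted p = 0.0843) and 4.94 without VSEL array 1 (adjusted p = 0.0187).

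Tbx21 encodes T-bet, a T-box factor of NK cells and of interferon-producing T cells. Its log2 value was 3.35, 3.79 and 3.53 in VSEL, 10.44, 10.88 and 10.60 in HSC and 3.56, 3.56 and 3.90 in ESC. The pattern was that of Klrd1, with HSC high and no overlap with the others. Tbx21 fell by 7.14 in VSEL against HSC (SE 0.19, adjusted p = 1.58e-05) and was 6.97 higher in HSC than in ESC (SE 0.17, adjusted p = 4.59e-06).

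Nkg7 encodes a membrane protein of cytotoxic granules that acts in their release. Its log2 value was 4.95, 11.11 and 11.35 on VSEL arrays 1 to 3, 12.38, 13.29 and 13.36 on HSC arrays and 4.62, 4.58 and 4.61 on ESC arrays. VSEL array 1 was near the ESC arrays and VSEL arrays 2 and 3 were near the HSC arrays, though below all of them. Nkg7 was 8.41 higher in HSC than in ESC (SE 1.47, adjusted p = 0.0149). This call rests on a spread that includes the distance between the VSEL libraries: its adjusted p was 0.0514 and 0.0534 without HSC array 2 or 3 and 0.0525 to 0.0553 without an ESC array, but 8.34e-05 in a fit of HSC and ESC alone. The VSEL minus HSC difference was -4.92 (95% interval -8.88 to -0.96, adjusted p = 0.0931) and -1.78 without VSEL array 1 (adjusted p = 0.0522). The VSEL minus ESC difference was 3.49 (95% interval -0.47 to 7.45, adjusted p = 0.194) and 6.63 without VSEL array 1 (adjusted p = 0.00182).

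Gzma and Gzmb encode granzymes of different substrate preference. The log2 value of Gzma was 5.36, 5.30 and 5.49 in VSEL, 8.28, 7.52 and 9.63 in HSC and 4.58, 4.58 and 4.83 in ESC. That of Gzmb was 5.74, 5.72 and 5.72 in VSEL, 8.99, 9.35 and 9.16 in HSC and 4.96, 4.90 and 4.74 in ESC. Both granzymes were above background on HSC arrays only, and the HSC arrays were spread more widely for Gzma (SD 1.07) than for Gzmb (SD 0.18). Gzmb fell by 3.43 in VSEL against HSC (SE 0.14, adjusted p = 8.19e-05) and was 4.30 higher in HSC than in ESC (SE 0.13, adjusted p = 9.22e-06). Gzma fell by 3.10 in VSEL against HSC (SE 0.56, adjusted p = 0.0207), a call that ended without VSEL array 1 (adjusted p = 0.0654) or HSC array 1 (0.0526), in a fit of VSEL and HSC alone (0.0830) and with array weights (0.0560). Gzma was 3.81 higher in HSC than in ESC (SE 0.50, adjusted p = 0.00483).

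Gzmb was the single member called in VSEL against ESC, 0.87 higher in VSEL (SE 0.14, adjusted p = 0.0151). Both groups were at background for it, and the olfactory receptor level given above was itself higher on VSEL than on ESC arrays. The part of that higher floor in the difference was not tested.

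Prf1 encodes perforin, and its probe sets disagreed. The probe set 1451862_a_at had log2 values of 5.33, 6.08 and 5.94 in VSEL, 7.41, 7.70 and 9.31 in HSC and 5.60, 5.72 and 5.55 in ESC. The probe set 1450335_at had 4.85, 4.76 and 4.42 in VSEL, 4.49, 4.32 and 4.69 in HSC and 4.79, 4.72 and 4.86 in ESC, all at background. By 1451862_a_at Prf1 was highest on the HSC arrays, with ESC array 2 just above background, and by 1450335_at on none. By 1451862_a_at it fell by 2.47 in VSEL against HSC (SE 0.56, adjusted p = 0.0375) and was 2.52 higher in HSC than in ESC (SE 0.50, adjusted p = 0.0256). The call against VSEL ended without VSEL array 1 (adjusted p = 0.124), without HSC array 2 (0.0607), without any ESC array (0.0666 to 0.0679), after another quantile normalization (0.0559), in a fit of VSEL and HSC alone (0.114) and with array weights (0.0766). The call against ESC ended without any ESC array (0.0789 to 0.0838). By 1450335_at the VSEL minus HSC difference was 0.22 (95% interval -0.14 to 0.59, adjusted p = 0.340) and the HSC minus ESC difference was -0.29 (95% interval -0.62 to 0.032, adjusted p = 0.291).

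**Figure D2:**
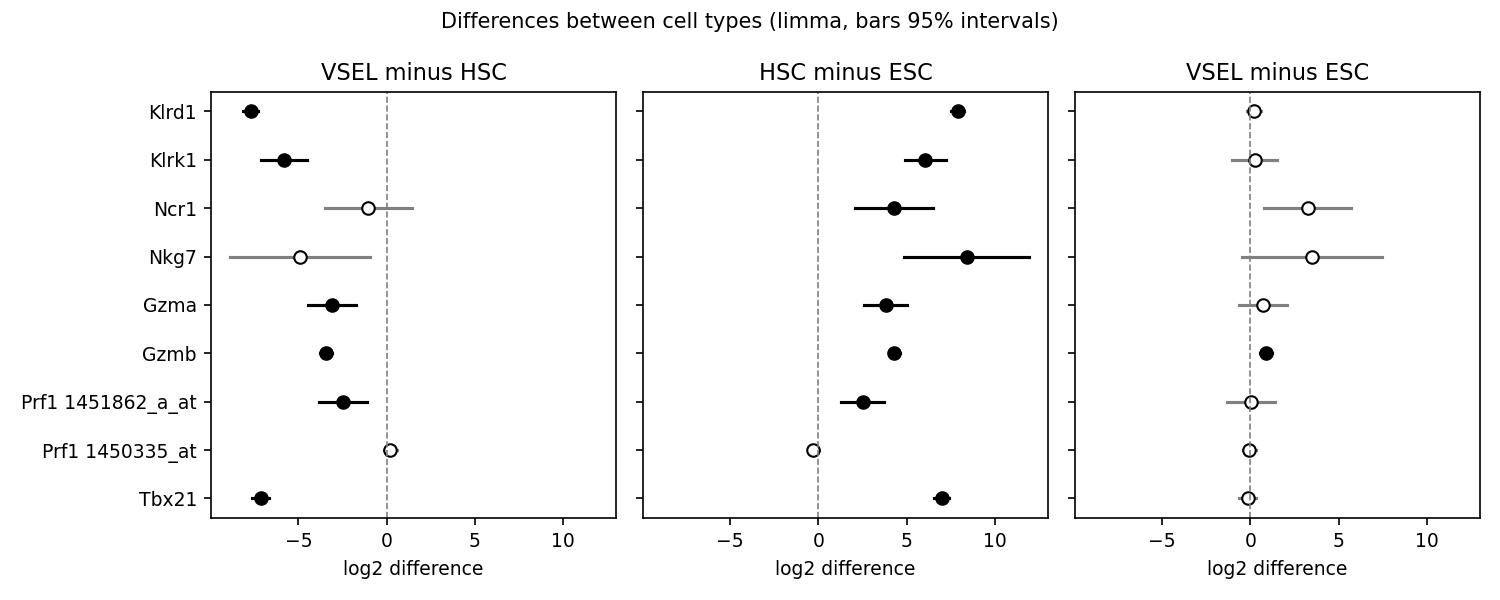
Log2 difference (x axis) of each probe set in VSEL minus HSC, HSC minus ESC and VSEL minus ESC, with 95% intervals from limma; filled points were called at an adjusted p of 0.05. The widest intervals are those of Nkg7 and Ncr1, whose VSEL libraries differ, and the Prf1 probe set 1450335_at lies near 0 in all panels.

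Leaving out the Prf1 probe set at background, HSC array 1 was the lowest of the group for 7 of 8 probe sets and the highest for none, where it was lowest for 45.9% of all probe sets. HSC arrays 2 and 3 were each the highest for 4 of 8, where they were highest for 39.5% and 33.4% of all probe sets, and HSC array 1 for 27.2%. The mean of the 8 members, each read from its brightest probe set, was 4.88 in VSEL 1 and 6.23 in VSEL 2+3, 9.47, 10.14 and 10.41 in HSC and 4.44, 4.43 and 4.56 in ESC.

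The split between the VSEL libraries was found in Nkg7 and Ncr1 and not in the other members. VSEL 2+3 exceeded VSEL 1 by 6.28 for Nkg7 and by 3.40 for Ncr1, and 2.99% of all probe sets exceeded it by more than 3. For the other 7 probe sets the difference ran from -0.26 to 0.68. These are values of single libraries and carry no test. Of 9 measured granulocyte and monocyte markers, 8 were above background on VSEL array 1 and 9 on VSEL arrays 2 and 3, and their summed linear signal was 69303 on VSEL array 1, against 200103 and 202830 on VSEL arrays 2 and 3. On HSC arrays that sum was 113908 to 130045. The erythroid and B lineage lists ran the opposite way between the VSEL libraries. The sum of 6 erythroid markers was 58127 on VSEL array 1 and 22655 and 21617 on VSEL arrays 2 and 3. It was 1775 to 4630 in HSC. That of 7 B lineage markers was 20341 on VSEL array 1 and 9276 and 9252 on VSEL arrays 2 and 3. It was 1654 to 9799 in HSC. Hba-a1 of the first list and Pax5 and Ebf1 of the second were at background on every VSEL array. The sum of 5 plasmacytoid dendritic markers ran with the granulocyte list, at 1234, 3054 and 3116 on VSEL arrays 1 to 3. So did that of 9 stem cell markers of blood, at 538, 1954 and 2034. Siglech and Cd34 made up most of these last sums on VSEL arrays 2 and 3. Of the erythroid list 3 of 6 markers, and of the B lineage list 3 of 7, were called higher in VSEL than in HSC. Of all genes 9.33% were. Cd79a and Cd79b of the B lineage list were not called. Of the 9 granulocyte and monocyte markers none was called. Of 13 T cell markers 4 or 5 were above background on each VSEL array, with summed signals of 1930 to 2668. On each ESC array 5 or 6 of the 13 were above it. Lat, Cd8a, Cd3e and Cd4 were above it on all 3 VSEL arrays and all 3 ESC arrays, while Cd3g and Cd8b1 were at background on both. Of 7 measured NK cell markers none was above background on VSEL array 1 and 1, Fcgr3, on VSEL arrays 2 and 3. Fcgr3, an Fc receptor gene of NK cells and myeloid cells, lay at 4.14 on VSEL array 1 and at 11.88 and 11.99 on VSEL arrays 2 and 3. The part of these markers in the Nkg7 and Ncr1 values was not tested.

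Other genes of the cytotoxic programme were counted in 6 lists with 93 genes, of which 83 were measured, each read from its brightest probe set. The lists were chosen with earlier results of these data known. Of the 83 genes 49 were higher in HSC than in ESC and none lower, where 6.32% of all genes were called higher and 8.87% lower, and the median difference was 3.38 against -0.042 over all genes. In VSEL against HSC 41 were lower and 1 higher, where 8.87% of all genes were called lower and 9.33% higher, with a median of -2.36 against 0.22. In VSEL against ESC 7 were higher and 2 lower, where 7.64% and 10.2% of all genes were called, with a median of 0.33 against 0.11.

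**Figure D3:**
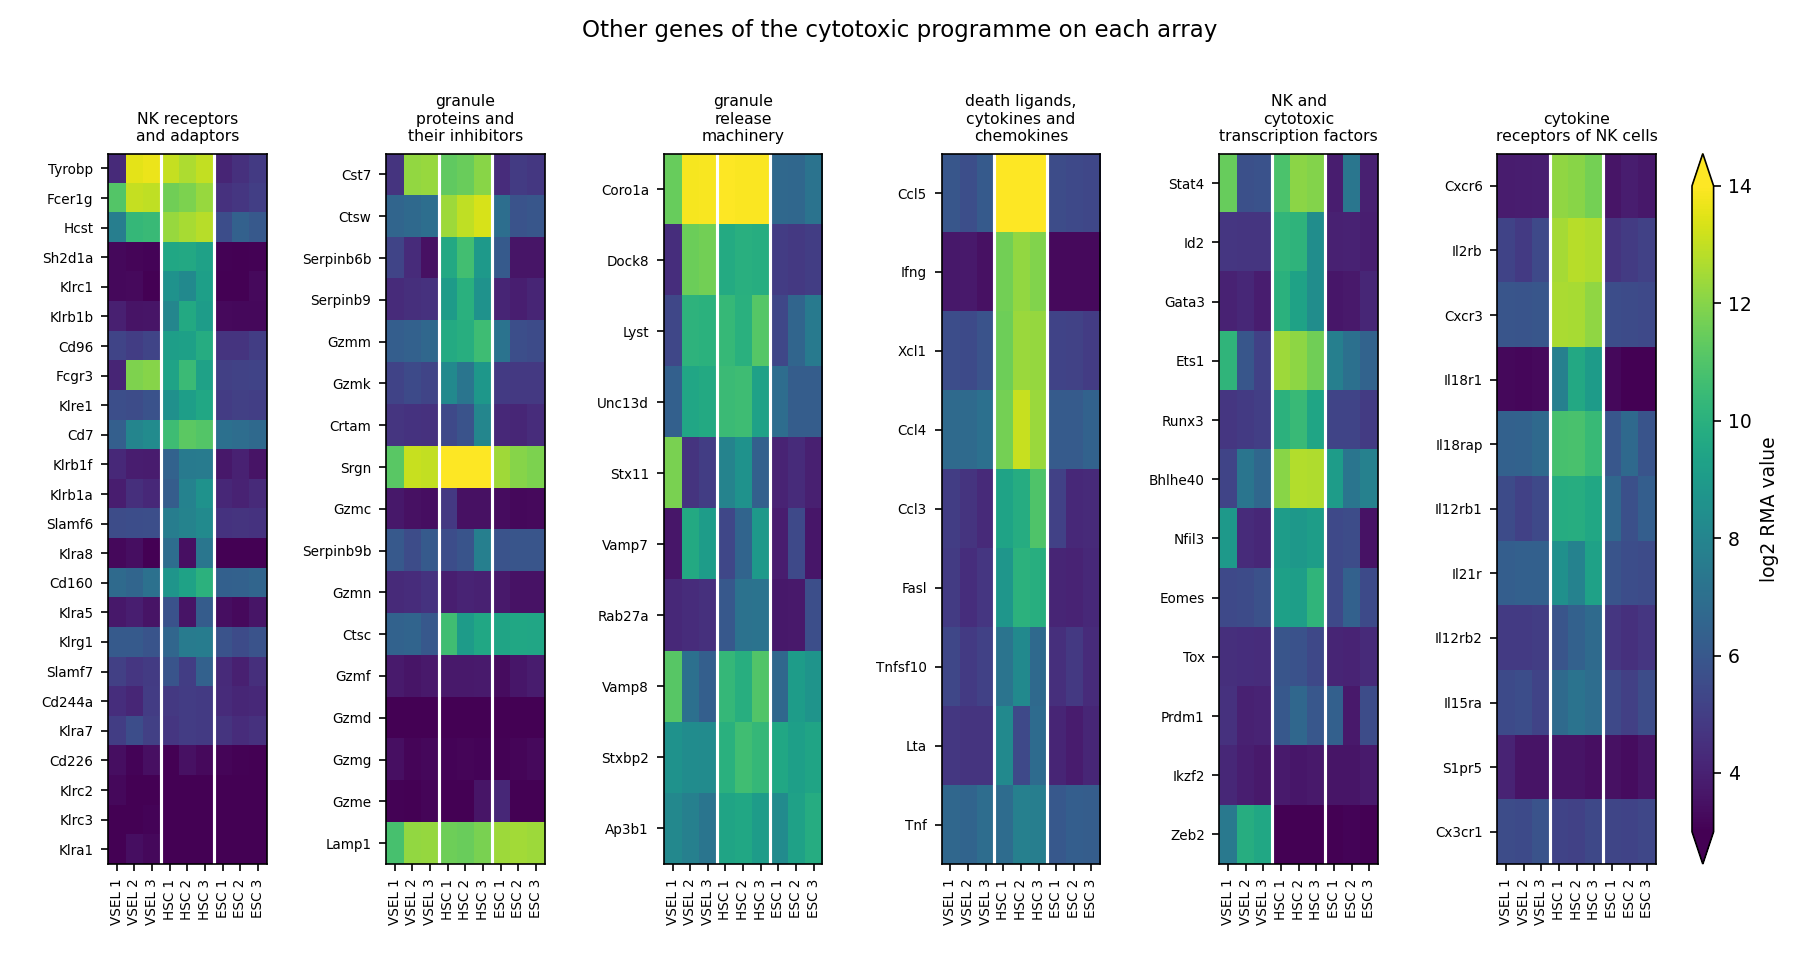
Log2 RMA value (colour; values past 3 or 14 take the end colours) of the 83 measured genes in 6 lists, with genes ordered by HSC minus ESC within a list and the VSEL, HSC and ESC arrays from left to right. Most lists are bright on the HSC arrays, Zeb2 is bright on the VSEL arrays alone, and Tyrobp, Fcgr3, Cst7 and Dock8 are dark on VSEL array 1 and bright on VSEL arrays 2 and 3.

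Among NK receptors and adaptors 11 of 24 were lower in VSEL than in HSC, none was higher, and 15 were higher in HSC than in ESC. Klrc1, which encodes an inhibitory partner of CD94, averaged 3.19 ± 0.046 in VSEL, 8.67 ± 0.51 in HSC and 2.92 ± 0.35 in ESC (SD; VSEL against HSC adjusted p = 0.000366). Sh2d1a, which encodes the adaptor SAP of SLAM family receptors, averaged 3.19 ± 0.073 in VSEL and 9.49 ± 0.16 in HSC (adjusted p = 8.33e-06). Fcer1g, an adaptor shared with myeloid cells, averaged 12.02 ± 1.36 in VSEL, 11.93 ± 0.35 in HSC and 4.79 ± 0.25 in ESC, so it was higher in HSC than in ESC (adjusted p = 0.000286) while VSEL and HSC overlapped.

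Klrd1 and Klrk1 are adjacent protein-coding genes on chromosome 6 in the RefSeq annotation of GRCm38.p6, inside the NK gene complex. Their neighbours are given by position, whatever their values. Klre1, next to Klrd1 on its other side, averaged 5.65 ± 0.010 in VSEL, 9.08 ± 0.52 in HSC and 5.03 ± 0.056 in ESC (VSEL against HSC adjusted p = 0.00118). Klrc3 and Klrc2, the genes after Klrk1, were at background on all arrays, with HSC means of 2.72 and 2.94, and Klrc1 follows them with the HSC level given above. The run of high genes on the HSC arrays was thus interrupted once, by Klrc3 and Klrc2, and the 3 genes after Klrc1 were not analysed here.

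**Figure D4:**
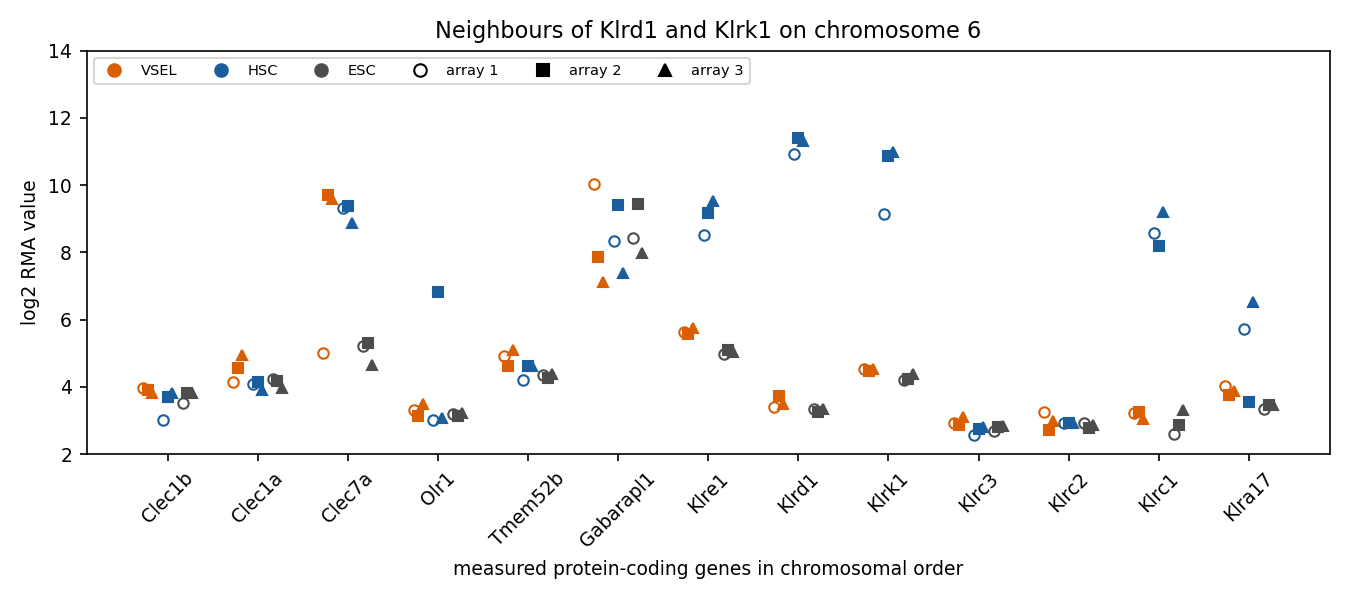
Log2 RMA value of the measured protein-coding genes within 8 places of Klrd1 on chromosome 6, in chromosomal order, on the VSEL, HSC and ESC arrays. Klre1, Klrd1, Klrk1 and Klrc1 are high on the 3 HSC arrays, Klrc3 and Klrc2 between them are at background on all 9 arrays, and Clec7a, of another family, is high on HSC arrays and on VSEL arrays 2 and 3.

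Among granule proteins and their inhibitors 7 of 17 were lower in VSEL than in HSC, none was higher, and 6 were higher in HSC than in ESC. Ctsw, a cathepsin gene of cytotoxic lymphocytes, averaged 6.73 ± 0.19 in VSEL, 12.89 ± 0.46 in HSC and 6.25 ± 0.64 in ESC (VSEL against HSC adjusted p = 0.000569). Serpinb6b, a serine protease inhibitor gene, averaged 4.58 ± 0.93 in VSEL and 9.76 ± 0.87 in HSC (adjusted p = 0.0203). The granzyme genes beside the members differed by locus. Gzmk, next to Gzma on chromosome 13, averaged 5.30 ± 0.092 in VSEL, 8.10 ± 0.79 in HSC and 4.83 ± 0.022 in ESC (VSEL against HSC adjusted p = 0.0111). The 6 granzyme genes that lie beside Gzmb on chromosome 14 (Gzmc, Gzmd, Gzme, Gzmf, Gzmg and Gzmn) were at background throughout, with values from 2.47 to 4.63 on VSEL arrays, 2.60 to 4.84 on HSC arrays and 2.37 to 4.20 on ESC arrays.

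Of 10 genes of granule release 1 was lower in VSEL than in HSC, which is near the 8.87% of all genes called lower. In HSC against ESC 3 were higher, where 6.32% of all genes were. Stxbp2, which encodes a syntaxin-binding protein needed for granule fusion, averaged 8.47 ± 0.20 in VSEL, 10.31 ± 0.31 in HSC and 9.38 ± 0.18 in ESC (VSEL against HSC adjusted p = 0.00489). Coro1a, an actin regulator gene of leukocytes in general, averaged 12.66 ± 1.70 in VSEL, 13.98 ± 0.061 in HSC and 6.85 ± 0.29 in ESC (HSC against ESC adjusted p = 0.000573).

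Death ligands, cytokines and chemokines were lower in VSEL than in HSC for 7 of 9 and higher in HSC than in ESC for 9 of 9. Ifng, the interferon gamma gene, averaged 3.65 ± 0.064 in VSEL, 11.92 ± 0.28 in HSC and 3.28 ± 0.010 in ESC (VSEL against HSC adjusted p = 8.33e-06). Ccl5, a chemokine gene of activated T and NK cells, averaged 5.91 ± 0.027 in VSEL, 14.30 ± 0.21 in HSC and 5.44 ± 0.10 in ESC (VSEL against HSC adjusted p = 5.94e-06). Both were at background on all VSEL and ESC arrays.

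Among transcription factors 6 of 12 were lower in VSEL than in HSC, 1 was higher, and 7 were higher in HSC than in ESC. Bhlhe40, a basic helix-loop-helix repressor gene, averaged 6.12 ± 1.20 in VSEL, 12.49 ± 0.39 in HSC and 8.06 ± 0.92 in ESC (VSEL against HSC adjusted p = 0.00319). Gata3, which acts in T cells and innate lymphoid cells, averaged 4.04 ± 0.0031 in VSEL and 9.25 ± 0.83 in HSC (adjusted p = 0.00154). The VSEL arrays lay at 4.05, 4.22 and 3.87 for it. Id2, an inhibitor of E proteins needed for NK cells, averaged 4.72 ± 0.024 in VSEL, 9.60 ± 1.03 in HSC and 4.00 ± 0.057 in ESC (HSC against ESC adjusted p = 0.000753). Zeb2, a repressor that acts in NK cell maturation and in myeloid cells, went the other way at 8.57 ± 1.59 in VSEL, 2.81 ± 0.14 in HSC and 2.93 ± 0.18 in ESC (VSEL against HSC adjusted p = 0.00284).

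Cytokine and chemokine receptors were lower in VSEL than in HSC for 9 of 11 and higher in HSC than in ESC for 9 of 11. Il2rb, the receptor chain shared by interleukins that sustain NK and memory T cells, averaged 5.18 ± 0.030 in VSEL, 12.68 ± 0.14 in HSC and 4.90 ± 0.25 in ESC (VSEL against HSC adjusted p = 8.51e-06). Cxcr6, a chemokine receptor gene of resident lymphocytes, averaged 3.86 ± 0.061 in VSEL, 11.97 ± 0.24 in HSC and 3.73 ± 0.12 in ESC (VSEL against HSC adjusted p = 8.33e-06).

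T cells and NK cells share many of these genes, and markers of both were read beside them. The summed linear signal of 13 T cell markers was 1930 to 2668 on VSEL arrays, 33031 to 37381 on HSC arrays and 722 to 868 on ESC arrays, and all 13 were above background on every HSC array. Of the 13, 10 were lower in VSEL than in HSC, where 8.87% of all genes were. In HSC against ESC 13 were higher, where 6.32% of all genes were. The T cell markers differed widely among themselves. Cd3g, a chain of the T cell receptor complex, averaged 4.28 ± 0.14 in VSEL, 12.82 ± 0.24 in HSC and 3.94 ± 0.22 in ESC. Of the CD8 coreceptor chains, Cd8b1 averaged 4.20 ± 0.039 in VSEL, 11.26 ± 0.078 in HSC and 3.76 ± 0.12 in ESC, whereas Cd8a averaged 7.66 ± 0.36 in VSEL, 7.70 ± 0.49 in HSC and 6.55 ± 0.059 in ESC. Cd8a (VSEL against HSC adjusted p = 0.940), Cd4 (0.0564) and Themis (0.0562) were the 3 not called in that comparison.

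Of the 7 NK cell markers measured, 4 were lower in VSEL than in HSC and none was higher, where 8.87% and 9.33% of all genes were. In HSC against ESC 5 were higher, where 6.32% of all genes were. Their summed signal was 188 on VSEL array 1 and 3917 and 4269 on VSEL arrays 2 and 3, 8098 to 10109 in HSC and 167 to 219 in ESC, and 5 or 6 of them were above background on each HSC array. Fcgr3 made up most of the sum on VSEL arrays 2 and 3, where the other markers were at background. Il2rb made up most of it on the HSC arrays. Eomes, the second T-box factor of NK cells, averaged 5.52 ± 0.14 in VSEL, 9.55 ± 0.57 in HSC and 5.77 ± 0.57 in ESC (VSEL against HSC adjusted p = 0.00307). The 3 markers not called in VSEL against HSC were Klra8 (adjusted p = 0.144), Cd244a (0.0770) and Fcgr3 (0.590). Klra8, an NK receptor gene, lay at 6.93, 3.45 and 7.31 on HSC arrays 1 to 3, so it was at background on HSC array 2. Cd244a, a receptor gene of NK cells, was at background on all 9 arrays. Fcgr3 was higher on VSEL arrays 2 and 3 than on any HSC array.

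Of 5 measured markers of group 2 innate lymphoid cells, 3 were lower and 1 higher in VSEL than in HSC. Of all genes 8.87% were lower and 9.33% higher. In HSC against ESC 3 of the 5 were higher, where 6.32% of all genes were. Their summed signal was 278 to 6967 on VSEL arrays, 4584 to 6279 on HSC arrays and 177 to 179 on ESC arrays, and all 5 were above background on every HSC array. Rora, a nuclear receptor gene of these cells, was above background on all 9 arrays, averaged 6.94 ± 0.39 in VSEL, 6.21 ± 0.017 in HSC and 6.23 ± 0.044 in ESC, and was the 1 higher in VSEL than in HSC (adjusted p = 0.0402). These values lie near the olfactory receptor level, which was itself higher on VSEL than on HSC arrays. The part of that higher floor in the Rora difference was not tested. Il7r, an interleukin receptor gene of many lymphoid cells, lay at 4.70 on VSEL array 1 and at 12.72 and 12.65 on VSEL arrays 2 and 3, against 11.40 ± 0.32 in HSC, and made up most of the sum on VSEL arrays 2 and 3. The part of T cells, NK cells or innate lymphoid cells in the cytotoxic genes was not tested.

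The genes most like the members were sought by the Pearson correlation over the 8 libraries between each gene's brightest probe set and the mean of the 8 members, among 6231 other genes whose values spanned at least 3 log2 units. The highest were Ttc7 (r = 0.996), Itgb2 (0.994), Epx (0.993), Trav9d-3 (0.992), Hcls1 (0.992), Cirbp (0.990), Smpdl3a (0.990) and Hsd11b1 (0.990). The members themselves correlated with their own mean at 0.814 for Ncr1, 0.943 for Nkg7 and 0.937 to 0.987 for the others. Itgb2, an integrin chain of leukocytes, lay at 5.74 in VSEL 1 and 7.37 in VSEL 2+3, at 13.22 to 13.32 in HSC and at 5.27 to 5.58 in ESC. With 3 cell types in 8 libraries, a high correlation means mainly that a gene was high in HSC and lower in both VSEL and ESC.

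Promoter sequences are printed for 4 members that differ in pattern: Klrk1 and Gzmb, which were high on HSC arrays alone, and Ncr1 and Nkg7, which were also high on VSEL arrays 2 and 3. Each runs from 250 bases before to 50 after the gene's start, 5′ to 3′ on the gene's strand, from RefSeq. Of the 8 members 7 matched the promoter table, and for Ncr1 the first of 2 windows is shown. Capitals mark matches on either strand to GTGTGA (T-box factors such as T-bet), TGTGGT (Runx factors) or TGANTCA (AP-1), which do not overlap each other in these windows.
Klrk1, GRCm38.p6 chr6:129623815-129624114, minus strand: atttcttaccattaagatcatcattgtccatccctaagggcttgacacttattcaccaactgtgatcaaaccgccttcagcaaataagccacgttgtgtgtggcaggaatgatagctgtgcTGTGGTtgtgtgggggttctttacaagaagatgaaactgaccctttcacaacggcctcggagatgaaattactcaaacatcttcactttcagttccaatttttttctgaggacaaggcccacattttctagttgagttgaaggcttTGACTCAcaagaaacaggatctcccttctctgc
Ncr1, GRCm38.p6 chr7:4337465-4337764, plus strand: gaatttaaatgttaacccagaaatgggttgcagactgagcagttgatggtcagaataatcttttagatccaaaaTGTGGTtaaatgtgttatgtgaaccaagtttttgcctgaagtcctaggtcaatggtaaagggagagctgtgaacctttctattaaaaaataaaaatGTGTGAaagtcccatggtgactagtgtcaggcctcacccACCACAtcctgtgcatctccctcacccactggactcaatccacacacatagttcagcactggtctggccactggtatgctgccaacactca
Nkg7, GRCm38.p6 chr7:43436888-43437187, plus strand: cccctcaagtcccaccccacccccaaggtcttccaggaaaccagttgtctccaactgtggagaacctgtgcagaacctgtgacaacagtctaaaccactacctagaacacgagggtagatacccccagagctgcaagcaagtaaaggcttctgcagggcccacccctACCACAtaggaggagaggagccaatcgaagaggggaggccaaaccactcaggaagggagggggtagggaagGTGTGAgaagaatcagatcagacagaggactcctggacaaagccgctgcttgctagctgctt
Gzmb, GRCm38.p6 chr14:56262285-56262584, minus strand: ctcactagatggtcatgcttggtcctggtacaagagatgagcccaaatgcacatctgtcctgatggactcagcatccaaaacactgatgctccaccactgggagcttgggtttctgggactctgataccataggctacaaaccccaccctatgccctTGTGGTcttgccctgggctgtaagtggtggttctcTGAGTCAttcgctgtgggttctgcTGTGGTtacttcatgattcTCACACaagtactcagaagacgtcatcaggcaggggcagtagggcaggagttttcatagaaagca
The Runx letters were found in 6 of 7 member windows and in 16.8% of 32851 windows of the same length, the T-box letters in 3 of 7 against 14.5%, and the AP-1 letters in 2 of 7 against 7.81%. The motifs were chosen after the windows had been seen. Nkg7, Ncr1 and Gzmb held the T-box letters, and the Tbx21 window held none of the 3. A match is a description of the letters and not of binding.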

How the data were processed

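Expression was measured on 9 Affymetrix mouse arrays, 3 each of VSEL, HSC and ESC, from cDNA of 20 cells per library. The authors deposited a log2 value for each probe set; the submitters' processing notes name RMA and Partek 6.5. RMA combines background correction, quantile normalization and a summary over probes, and can compress low values. Its settings are unknown here. Values were used as deposited, without detection calls. The table holds 45101 probe sets, and 64 array controls were left out.

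Probe sets were named from the platform annotation, 34945 with 1 gene, 932 with several and 9160 not listed. Symbols of 34741 were updated through RefSeq of GRCm38.p6. Genes counted in lists were read from their probe set with the highest mean (18193 genes). No coordinates are printed for probe sets, since the build of the array annotation is unknown here.

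VSEL arrays 2 and 3 were averaged. Two-sided tests came from limma 3.58.1 (R 4.3.3), as 1 model of 8 libraries with 5 residual degrees of freedom and a prior of 1.33, Benjamini-Hochberg adjusted over 45037 probe sets. The fit assumes equal spread in the 3 cell types. The step was tested on simulated data. Their spread was taken from the HSC and ESC libraries alone, so this check does not cover the wider spread between the VSEL libraries. The number of arrays limits the precision. Members and lists were chosen with earlier results of these data known. Named in each list were the called genes with the 2 largest negative and the largest positive VSEL minus HSC difference and the largest in each direction in HSC minus ESC; marker genes, neighbours by position and the 8 most correlated genes were added. Same-numbered arrays did not deviate together (r of -0.092 to 0.16, above 0.1 in 1 of 9 pairs), so numbers were not taken as pairs. The alternatives were other normalizations, filters, fits and left-out arrays.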

Additional observations from a re-analysis of the deposited data

How the results depend on the processing

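Across 19 alternatives, 464 of 498 member differences kept their direction and their side of the threshold, 26 lost their call and 5 gained one. The 3 that changed sign were VSEL minus HSC of the Prf1 probe set 1450335_at (-0.11 after cyclic loess), VSEL minus HSC of Ncr1 (0.66 without VSEL array 1, in a range from -1.49 when arrays were left out in turn) and VSEL minus ESC of 1450335_at (0.012 without VSEL array 3, in a range from -0.20), none of them called. The calls of Klrd1, Klrk1, Gzmb and Tbx21 in VSEL against HSC and HSC against ESC held in all alternatives that tested them. The count of members called in VSEL against HSC was 3 of 6, in place of 6 of 9, when probe sets that can match several transcripts were left out, and in HSC against ESC it was 5 of 6 in place of 8 of 9; this filter removes the probe sets of Gzma and Klrk1 and the brighter of Prf1. In VSEL against ESC the count was 2 in place of 1 in a fit of these groups alone, with 9 arrays kept separate, and with 9 arrays and a replicate block; the numbers share no known source, 6 of 18 best matches between arrays of different groups shared a number, and the block changed no other count by over 1.5 times. Leaving out arrays in turn gave 4 to 6 called members in VSEL against HSC, 1 to 3 in VSEL against ESC and 5 to 8 in HSC against ESC. It gave 39 to 43, 5 to 13 and 40 to 56 called pathway genes, against 42, 9 and 49. Without VSEL array 1, VSEL 2+3 stands alone and is assumed to vary like the other groups. Why these calls moved was not tested. Values at background limit what can be said of VSEL and ESC.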

Other observations

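Several genes of the cytotoxic lists stood apart between the VSEL libraries by more than 3 log2 units, 7 of 83 higher in VSEL 2+3, where 4.75% of all genes were, and 5 of 83 higher in VSEL 1, where 4.48% were; they were chosen after their values were seen and carry no test. Tyrobp, which encodes the adaptor DAP12 of NK and myeloid receptors, lay at 4.31 on VSEL array 1 and at 13.56 and 13.69 on VSEL arrays 2 and 3, against 12.88 ± 0.21 in HSC (SD, n = 3). Cst7, a cysteine protease inhibitor gene, lay at 4.64 on VSEL array 1 and at 12.22 and 12.29 on VSEL arrays 2 and 3, against 11.60 ± 0.38 in HSC. Dock8, Vamp7, Lyst and Unc13d, genes of the cytoskeleton and granule release, ran the same way, as did Fcgr3.

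The genes higher in VSEL 1 were Stx11, Stat4, Ets1, Nfil3 and Vamp8. Stx11, a syntaxin gene of granule fusion, lay at 11.77 on VSEL array 1 and at 4.67 and 4.99 on VSEL arrays 2 and 3, against 7.64 ± 1.15 in HSC (SD, n = 3). Stat4, a signal transducer gene of interleukin 12, lay at 11.46 on VSEL array 1 and at 5.67 and 5.77 on VSEL arrays 2 and 3, against 11.64 ± 0.67 in HSC.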
